A study of Mus musculus with 36 samples.

Results

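The mouse liver libraries held counts for 78 protein-coding genes named *Mrps* or *Mrpl* followed by a number, the genes of the proteins of the mitochondrial ribosome. Members were taken by that name rule and by a minimum of 100 counts summed over all 36 libraries, which 77 genes met, 29 named *Mrps* and 48 named *Mrpl*, of 17994 genes that met the same minimum in the whole table. Livers came from male mice of 2 to 3 months on chow under 12 h light and 12 h dark, bred on C57Bl/6NCrl. THRB WT is the study's name for controls heterozygous for the altered *Thrb* allele (THRB+/-), and THRB KO mice were homozygous for it (THRB-/-), which impairs DNA binding of both isoforms of thyroid hormone receptor beta in the whole body. Both genotypes thus carried the allele of the line B6.129S1-Thrbtm1Df/J. Each genotype had 18 mice, with 3 mice at every 4 h from ZT2 to ZT22, where ZT is the time in hours after lights on. The question was whether the level of these transcripts, and its course over the day, differed between livers with and without functional THRB.

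Mitochondria hold ribosomes of their own, with a small subunit that reads the messenger RNA and a large subunit that forms the peptide bond. These ribosomes make the few proteins encoded in mitochondrial DNA, which are core parts of the respiratory chain and of ATP synthase. All of the ribosome's proteins are encoded in the nucleus, made in the cytosol and imported. Some descend from bacterial ribosomal proteins and others are found only in mitochondria. Liver cells are rich in mitochondria, and thyroid hormone is known as a stimulus of mitochondrial biogenesis in this organ.

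Total counts ranged from 29063273 to 42530551 per library, and 0.239% to 0.292% of them fell on the members. Mean Spearman correlation of a library with the other mice of its group lay between 0.982 and 0.989, so no library stood apart by this measure. Hepatocyte markers such as *Alb* dominated, with a summed level of 65213 to 97454 CPM (the counts of a gene scaled to equal library size), against 125 to 384 CPM for Kupffer cell markers. No tested gene of the 10 marker lists of liver and other cell types was called for genotype. Sampling time was called for 4 of 5 endothelial, 2 of 4 stellate cell and 2 of 4 cholangiocyte markers. It was called for 2 of 6 hepatocyte and 0 of 5 Kupffer cell markers, beside 45% of all tested genes. The part of these cell types in the results was not tested. The core clock genes *Arntl*, *Nr1d1* and *Dbp* and the other 7 clock genes were called rhythmic in both genotypes, as the time labels imply. *Thrb* transcript itself lay at 24.3 to 38.5 CPM in THRB WT and at 26.2 to 37.7 CPM in THRB KO livers, and since counts per gene do not separate the altered exon, it gave no check of the genotype labels. In whole liver, fewer cells of a type and less RNA per cell cannot be told apart.

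The transcripts of mitochondrial ribosomal proteins varied with the time of day in part of the set and in opposite directions. Sampling time, tested with edgeR's quasi-likelihood test over both genotypes and Benjamini-Hochberg adjustment, passed an adjusted p of 0.05 for 27 of 77 members (35.1%), beside 45% of all tested genes. Among the 6720 genes with a mean in the range of the members, 8.13 to 83.7 CPM, the share was 64.5%. The highest group of 6 mice exceeded the lowest by a factor of 1.69 at most, and by a median factor of 1.24 among the 27. By the peak of a fitted curve of 24 h in THRB WT livers, 19 of these 27 peaked between ZT12 and ZT24, the dark phase in which mice are active and feed, and 8 peaked in the light phase. Some of the 27, such as *Mrpl3* and *Mrps31*, were not called rhythmic in THRB WT livers, so their peak times are less certain. The same split over all genes called for sampling time was not counted. Of all genes called rhythmic in THRB WT livers, 51.2% peaked between ZT0 and ZT12. The small subunit held 6 called members of 17 with a bacterial counterpart and 5 of 9 that occur only in mitochondria. In the large subunit, 14 of 30 with a bacterial counterpart and 2 of 20 listed as proteins of mitochondria were called. The latter list includes *Mrps18a*, which also has a bacterial relative. The difference between these lists was not tested.

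**Figure D1:**
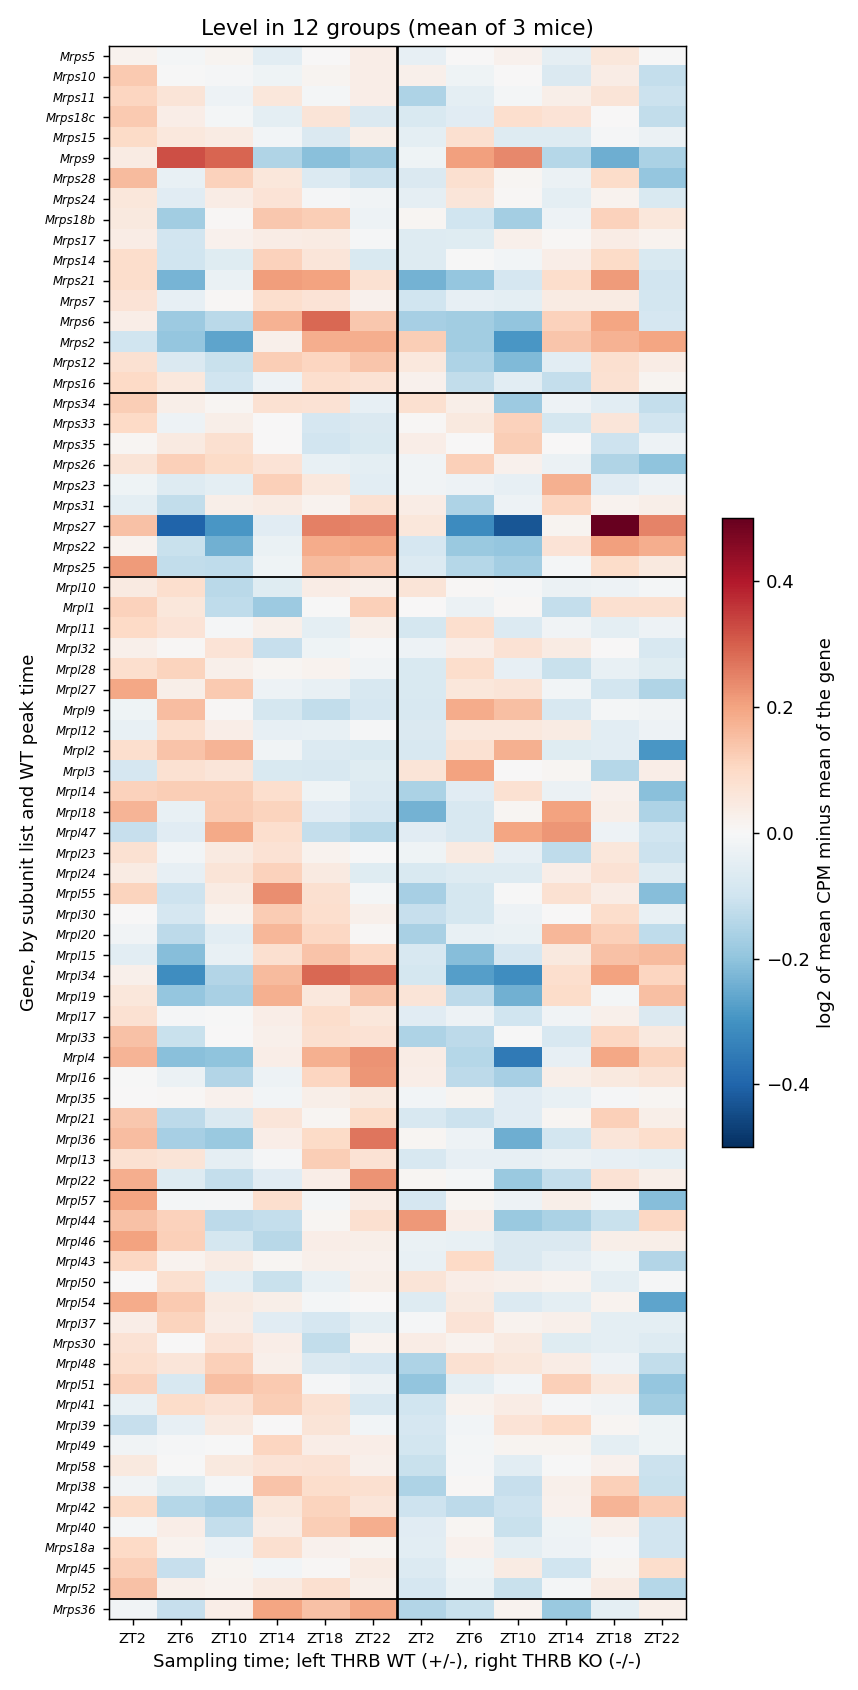
Mean level of the 77 genes in each of the 12 groups, as log2 of the mean CPM of 3 mice minus the mean of that gene over the groups; rows are ordered by subunit list, separated by lines, and by peak time in THRB WT, columns by genotype and sampling time. Only a few rows, such as *Mrps27*, *Mrpl34* and *Mrps9*, show strong colour, and most of the others stay near white in both genotypes.

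The mice of each group carry the letters a, b and c, and the number called for sampling time was 15 without letter a (19.5%, against 33.2% of all genes), 20 without b (26% against 35.5%) and 16 without c (20.8% against 32.5%). There were 9 members that passed in each of these fits as well as with DESeq2, with its size factors and under both other filters on low counts. They were *Mrps27*, *Mrpl34*, *Mrpl4*, *Mrps2*, *Mrps22* and *Mrpl15*, with a peak in the dark, and *Mrps9*, *Mrpl47* and *Mrpl44*, with a peak in the light. Of these, *Mrpl15*, *Mrps22* and *Mrpl44* were singled out after their values were seen. How many of all tested genes passed in each of these fits was not counted, so 9 cannot be called many or few. For each of the 9, the low and high times compared below were taken from the same values. That groups at these times lie apart is therefore a description and no further support. How many of all genes do the same was not counted.

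*Mrps27* encodes a small subunit protein of mitochondria with RNA-binding repeats, and had the largest amplitude of all members. At ZT10 the 3 THRB WT mice had 18.3, 24.3 and 20.4 CPM, and at ZT18 they had 35.04, 26.8 and 30.1 CPM. In THRB KO mice the values were 16.4, 25 and 16.04 CPM at ZT10 and 41.0, 37.8 and 32.8 CPM at ZT18. Every mouse at ZT18 was thus above every mouse of its own genotype at ZT10. The amplitude, the distance from the mean of the fitted curve to its peak on the log2 CPM scale, was 0.35 (SE 0.058) in THRB WT and 0.44 (SE 0.072) in THRB KO livers, with peaks at ZT20.5 (SE 0.636 h) and ZT19.9 (SE 0.621 h). Sampling time had an adjusted p of 3.8e-07 by edgeR's quasi-likelihood test.

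*Mrpl34*, a small protein of the large subunit with a bacterial counterpart, followed with 46.1, 37.1 and 35.7 CPM at ZT6 and 65.9, 54.0 and 60.0 CPM at ZT18 in THRB WT mice. The corresponding THRB KO mice had 39.8, 46.8 and 35.01 CPM at ZT6 and 57.9, 56.6 and 54.8 CPM at ZT18. Again the groups at these times did not overlap in either genotype. Its amplitude was 0.30 (SE 0.051) in THRB WT and 0.27 (SE 0.044) in THRB KO livers, and both peaks fell at ZT19.1 and ZT19.0. The rhythm passed in each genotype by edgeR's test of the fitted curve (adjusted p = 3e-05 and 0.000167).

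*Mrpl4*, whose protein lines part of the tunnel through which the new peptide leaves, had 37.8, 34.7 and 43.1 CPM at ZT10 and 53.5, 43.3 and 53.4 CPM at ZT18 in THRB WT livers. In THRB KO livers the same times gave 35.4, 34.4 and 34.0 CPM against 51.8, 50.9 and 49.2 CPM. The low and high groups were separate in both genotypes, although 1 THRB WT mouse at ZT18 was only just above the highest mouse at ZT10. Peaks lay at ZT20.8 in both, with amplitudes of 0.24 (SE 0.043) and 0.24 (SE 0.040).

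*Mrps2*, a small subunit protein with a bacterial counterpart, ranged in THRB WT mice from 33.2 to 34.4 CPM at ZT10 and from 39.9 to 52.6 CPM at ZT22. THRB KO mice ranged from 31.6 to 34.8 CPM and from 40.9 to 53.9 CPM at these times. No mouse at ZT22 reached down to the level of ZT10. The amplitudes were 0.23 (SE 0.038) and 0.24 (SE 0.052), with peaks at ZT19.5 and ZT20.2.

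*Mrps22*, another small subunit protein of mitochondria, rose from 17.6 to 19.0 CPM at ZT10 in THRB WT mice to between 24.02 and 25.6 CPM at ZT18, and from 17.98 to 19.95 CPM to between 22.8 and 26.97 CPM in THRB KO mice. *Mrpl15*, of the large subunit and the most abundant of the 9 per library, had 51.6 to 58.6 CPM at ZT6 and 61.5 to 74.8 CPM at ZT18 in THRB WT, against 51.0 to 56.4 and 67.1 to 73.7 CPM in THRB KO mice. Both had their lowest and highest groups apart in each genotype. *Mrpl15* changed by a factor of 1.28 between its lowest and highest time, with an adjusted p of 9.4e-07 by edgeR's quasi-likelihood test.

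*Mrps9* ran the other way. Its protein, of bacterial descent, reaches toward the site of the transfer RNA that holds the growing peptide. THRB WT mice had 29.6, 27.9 and 25.8 CPM at ZT6 and 26.1, 26.0 and 29.4 CPM at ZT10, but 19.5, 17.6 and 20.5 CPM at ZT18. THRB KO mice had 28.0, 25.3 and 23.5 CPM at ZT6, 27.7, 23.2 and 27.9 CPM at ZT10 and 18.7, 18.8 and 18.8 CPM at ZT18. All light-phase values at ZT6 and ZT10 exceeded all values at ZT18. *Mrps9* had the smallest p of the members for sampling time (adjusted p = 5.7e-09 by edgeR's quasi-likelihood test), with peaks at ZT7.06 (SE 0.521 h) in THRB WT and ZT7.24 (SE 0.560 h) in THRB KO livers.

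*Mrpl47*, a large subunit protein near the peptide exit, was highest at ZT10 over both genotypes, with 15.6 to 18.8 CPM in THRB WT and 16.99 to 18.04 CPM in THRB KO mice, and lowest at ZT22, with 12.8 to 14.7 CPM and 12.5 to 15.4 CPM. It overlaps *Ndufb5* by 616 bases and *Actl6a* by 1577 bases on the opposite strand, and in libraries without strand information reads of such overlaps cannot be assigned with certainty. *Mrpl44*, a large subunit protein of mitochondria with an RNase-like fold, was highest at ZT2, at 23.8 to 24.9 CPM in THRB WT and 24.5 to 26.8 CPM in THRB KO mice. At ZT10 it had 16.7 to 22.3 CPM and 17.7 to 20.2 CPM. For both genes the groups at these times, taken from the same values, did not overlap in either genotype.

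**Figure D2:**
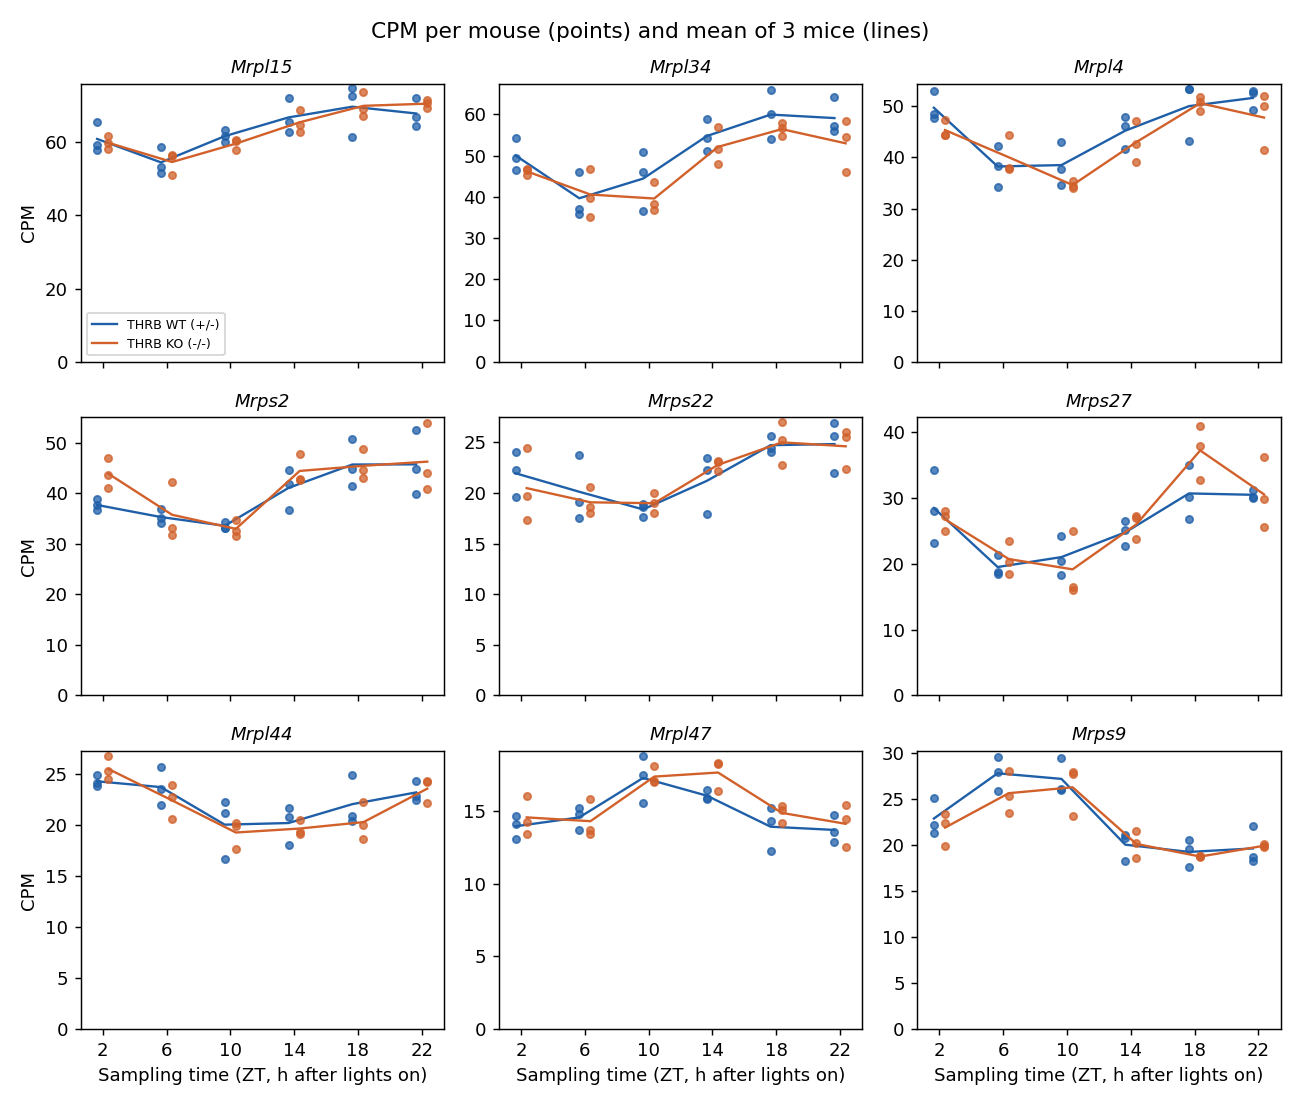
CPM of each mouse (points) and mean of 3 mice (lines) over the sampling times for the 9 genes called for sampling time in every fit, THRB WT in blue and THRB KO in orange, with axes from 0. *Mrpl15* to *Mrps27* are high at ZT18 or ZT22, *Mrps9* and *Mrpl47* at ZT6 to ZT14 and *Mrpl44* at ZT2, and the lines of both genotypes run a similar course.

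A 24-h rhythm was then tested within each genotype. In THRB WT livers 19 members were called rhythmic, beside 35.1% of all tested genes, which is 24.7% of the members. In THRB KO livers 21 members were called, or 27.3%, beside 31.5% of all genes. Between them 28 members were called in at least 1 genotype and 12 in both. The called members peaked at ZT0 to ZT12 in 7 cases and at ZT12 to ZT24 in 12 cases in THRB WT, and in 5 and 16 cases in THRB KO livers. Without letter a, letter b and letter c in turn, 12, 12 and 10 members were called in THRB WT and 10, 16 and 8 in THRB KO livers. In THRB WT these are 15.6%, 15.6% and 13% of members, against 24.9%, 23.4% and 20.8% of all genes. In THRB KO they are 13%, 20.8% and 10.4%, against 19%, 22.4% and 17% of all genes. Of all genes called rhythmic, 51.2% and 51.4% peaked between ZT0 and ZT12.

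Amplitudes were small. Over all 77 members the median amplitude was 0.08 on the log2 scale in either genotype, beside medians of 0.21 and 0.20 over all tested genes. Among called members it was 0.18 in both, and among all called genes 0.30 in both. After *Mrps27*, *Mrpl34* and *Mrps9*, the next amplitudes in THRB WT livers belonged to *Mrpl4*, *Mrps2* and *Mrps6* (0.23, SE 0.058). *Mrps6*, a small subunit protein, was also the least counted member, with 9953 counts over all libraries, and shares its locus on the same strand with *Slc5a3*. Its range was 6.56 to 8.22 CPM at ZT6 and 8.97 to 10.3 CPM at ZT18 in THRB WT mice.

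Apart from *Mrps9* and *Mrpl47*, the peaks farthest from the circular mean of the 19 members (ZT21.9) were those of *Mrpl9* at ZT6.23 (SE 0.976 h) and *Mrpl37* at ZT6.01 (SE 1.26 h), both of the large subunit. *Mrpl9* had 42.0 to 49.3 CPM at ZT6 and 38.0 to 39.9 CPM at ZT14 in THRB WT mice, and 44.3 to 52.1 and 35.7 to 42.3 CPM in THRB KO mice. Its groups were apart at these times in both genotypes, again a description, since the times were taken from the same values. *Mrpl37* was called in THRB WT livers only by the test within that genotype (adjusted p = 0.0341, against 0.352 in THRB KO livers by edgeR), and the test of the difference between genotypes gave an unadjusted edgeR p of 0.38.

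**Figure D3:**
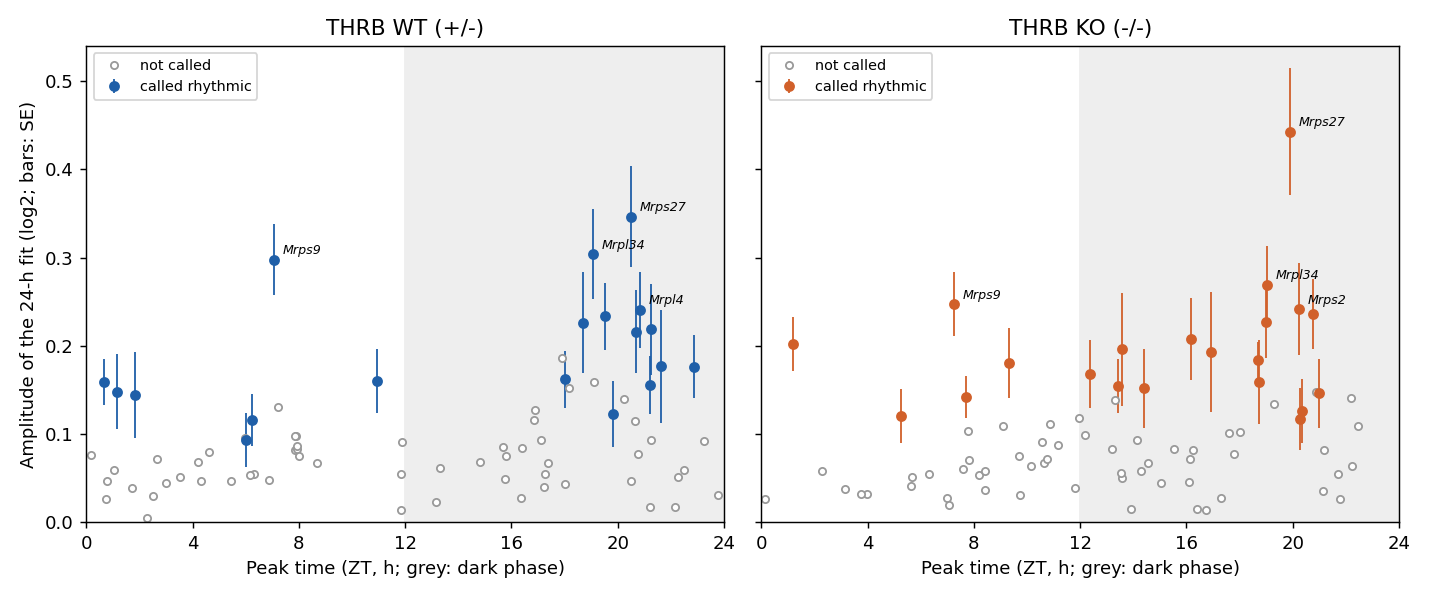
Amplitude on the log2 scale against peak time of the 24-h curve for each of the 77 genes, THRB WT on the left and THRB KO on the right; filled points with standard errors were called rhythmic, open points were not, and grey marks the dark phase. The largest amplitudes, up to 0.35 and 0.44 for *Mrps27*, lie near ZT20 in both genotypes, with *Mrps9* apart near ZT7.

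Rhythms did not differ detectably between the genotypes. No member passed the edgeR test of a difference in amplitude or peak, and no gene of the whole table did (0%). Without adjustment 1 member, *Mrpl1*, and 553 genes had a p under 0.05, and DESeq2 also called 0 members, with 1 under that unadjusted limit. For the 12 members called in both genotypes, the shift of the peak in THRB KO relative to THRB WT livers ranged from -1.75 h to 1.43 h, with a median of -0.0071 h, and 6 of the 12 were later in THRB KO livers. *Mrps22* (ZT20.7, SE 0.835 h, against ZT19.0, SE 0.694 h) and *Mrpl47* (ZT10.9, SE 0.864 h, against ZT12.4, SE 0.884 h) were near these extremes. The errors of single peaks are thus of the same order as the shifts.

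The interaction of genotype with the 6 sampling times as a factor gave 0 members and 0 genes (0%) with edgeR and with DESeq2. At an unadjusted p under 0.05 it gave 0 members and 484 genes with edgeR.

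No member passed the threshold for a difference in level between the genotypes, which does not show that the levels were equal. With sampling time in the model, edgeR called 0 of 77 members at an adjusted p of 0.05, beside 171 of 17994 genes (0.95%), and DESeq2 also called 0 members. At an unadjusted p under 0.05 there were 10 members with edgeR, which is 12.99% against 12.1% of all genes, and 8 with DESeq2. All 10 had a lower estimate in THRB KO livers. They were *Mrpl14*, *Mrpl55*, *Mrpl52*, *Mrpl17*, *Mrps26*, *Mrps12*, *Mrpl54*, *Mrpl40*, *Mrpl34* and *Mrpl13*, of which *Mrps26* and *Mrps12* belong to the small subunit. With same-lettered mice of a sampling time as blocks, 0 members were called. In that fit 21 members had an unadjusted edgeR p under 0.05 (27.3%, against 15.6% of all genes).

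Estimates lay below 0 for 62 of 77 members, or 80.5%, against 50.5% of all genes. The median log2 fold change, THRB KO minus THRB WT, was -0.05 beside -0.0011 over all genes, and the standard errors of single members ranged from 0.029 to 0.079. The smallest adjusted p was 0.252, for *Mrpl14*. Without the mice of letter c the median was -0.02, with 53 members below 0 and 2 with an unadjusted edgeR p under 0.05 (2.6%, against 8.28% of all genes). Without those of letter b it was -0.07, with 69 below 0 and 23 under that limit (29.9% against 12.2%). The size of this lean therefore depended on which mice were included.

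*Mrpl14*, a large subunit protein at the interface of the subunits, had a lowest, median and highest value of 54.5, 70.3 and 81.0 CPM in THRB WT and 51.1, 62.9 and 77.7 CPM in THRB KO mice. Its log2 fold change was -0.12 (SE 0.045). For *Mrpl54*, also of the large subunit, the values were 22.0, 27.5 and 33.9 CPM against 18.6, 24.9 and 29.6 CPM, with a log2 fold change of -0.13 (SE 0.057). The genotypes overlapped over most of their range for both genes.

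*Mrpl55* had 18.5, 22.9 and 27.3 CPM in THRB WT and 16.2, 20.9 and 24.9 CPM in THRB KO mice (log2 fold change -0.12, SE 0.046). *Mrpl52* had 49.7, 54.9 and 65.4 CPM against 41.8, 52.2 and 60.9 CPM (-0.11, SE 0.045), with the lower mean in THRB KO livers at all 6 times. *Mrps36* had the lowest estimate of all, -0.15 (SE 0.079, adjusted p = 0.469 by edgeR), from 12.3, 18.4 and 26.1 CPM to 12.3, 17.3 and 21 CPM. Although named as a ribosomal protein, its product is known as a subunit of the 2-oxoglutarate dehydrogenase complex, so it was placed in no subunit list. Each of these 3 genes had overlapping genotypes.

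The 5 highest estimates were those of *Mrpl3* (0.06, SE 0.035), *Mrps2* (0.06, SE 0.043), *Mrpl47* (0.05, SE 0.037), *Mrpl9* (0.05, SE 0.032) and *Mrps27* (0.04, SE 0.062), none of which passed (edgeR adjusted p from 0.545 to 0.874). *Mrpl3* lies close to the centre where peptide bonds form, and ranged from 17.97 to 23.4 CPM in THRB WT and from 18.4 to 25.5 CPM in THRB KO mice. The estimate of *Mrps2* was -0.0078 without the mice of letter b.

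*Mrps16* is the member nearest to *Thrb*, 2.35 Mb away on chromosome 14, where alleles of the targeted strain can travel with the altered gene. Its lowest, median and highest values were 25.03, 32.7 and 36.1 CPM in THRB WT and 26.1, 30.8 and 34.2 CPM in THRB KO mice, with a log2 fold change of -0.06 (SE 0.044, adjusted p = 0.623 by edgeR). No other member lay within 20 Mb.

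**Figure D4:**
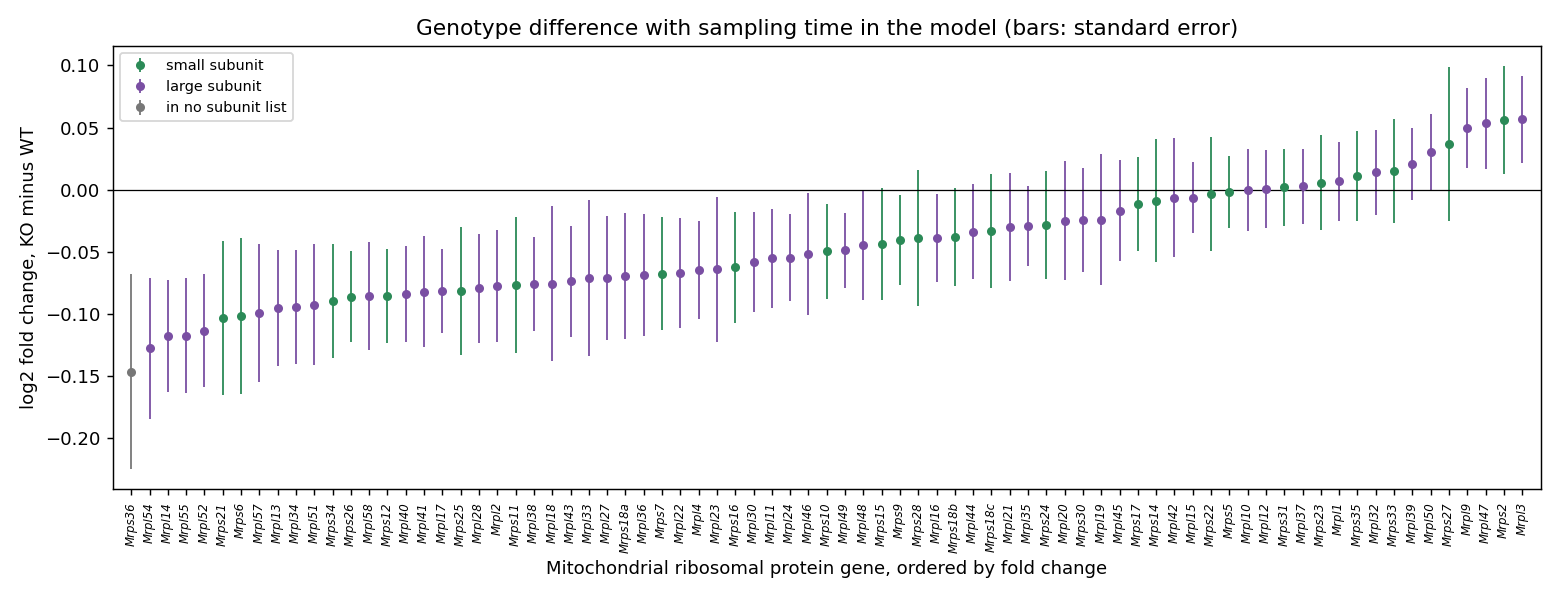
Log2 fold change of each of the 77 genes, THRB KO minus THRB WT with sampling time in the model, ordered by size with standard errors; green marks the small subunit, purple the large subunit and grey *Mrps36*. Estimates run from -0.15 to 0.06, 62 lie below 0, and green and purple are mixed along the order.

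At single sampling times no member passed, against 5 genes (0.0278%) at ZT2, 2 (0.0111%) at ZT6, 3 (0.0167%) at ZT10, 3 (0.0167%) at ZT14, 4 (0.0222%) at ZT18 and 4 (0.0222%) at ZT22, by edgeR with 3 mice a group and the spread taken from all groups. DESeq2 also called 0 members. Without adjustment 9 members (11.7%, against 5.43% of all genes) were under 0.05 at ZT2, all lower in THRB KO livers. At ZT22 there were 2 (2.6% against 4.73%), *Mrpl38* and *Mrpl40*, both lower, and at the other times none, against 4.12% to 5.36% of all genes. The median over members was -0.12 at ZT2, 0.0058 at ZT6, -0.04 at ZT10, -0.05 at ZT14, -0.0031 at ZT18 and -0.06 at ZT22, while medians over all genes stayed between -0.0077 and 0.0057. Values below 0 were found for 65, 35, 49, 52, 41 and 59 members in that order. Over all sampling times, 11 members were under 0.05 without adjustment at any of them (14.3%, against 23.9% of all genes). Without the mice of letter c there were 3 (3.9% against 19.7%). Without those of letter a there were 14 (18.2% against 24.3%), and without letter b 13 (16.9% against 20.1%). How many of these fell at ZT2 was not counted. Members also varied together from mouse to mouse (median r of 0.49, below), so the 9 at ZT2 are not separate observations.

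Per mouse, the mean log2 CPM of the 77 genes was expressed relative to its mean over THRB WT mice. At ZT2 the 3 THRB WT mice lay between -0.03 and 0.12 and the THRB KO mice between -0.08 and -0.05, so they did not overlap there. At ZT6 the ranges were -0.16 to 0.09 and -0.14 to 0.0031, and at ZT22 they were -0.07 to 0.11 and -0.19 to 0.04. Genotypes overlapped at all times but ZT2. The same mean over genes of cytosolic ribosomal proteins was also separate at ZT2. It lay between -0.07 and 0.24 in THRB WT and between -0.23 and -0.16 in THRB KO mice. The separation at ZT2 was thus not particular to the members. With 3 mice a group it can also arise by chance, and how many other gene sets separate at a single time was not counted. For the members, mice of the same group differed by an SD of 0.021 to 0.13, against a mean difference between the genotypes of -0.04.

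**Figure D5:**
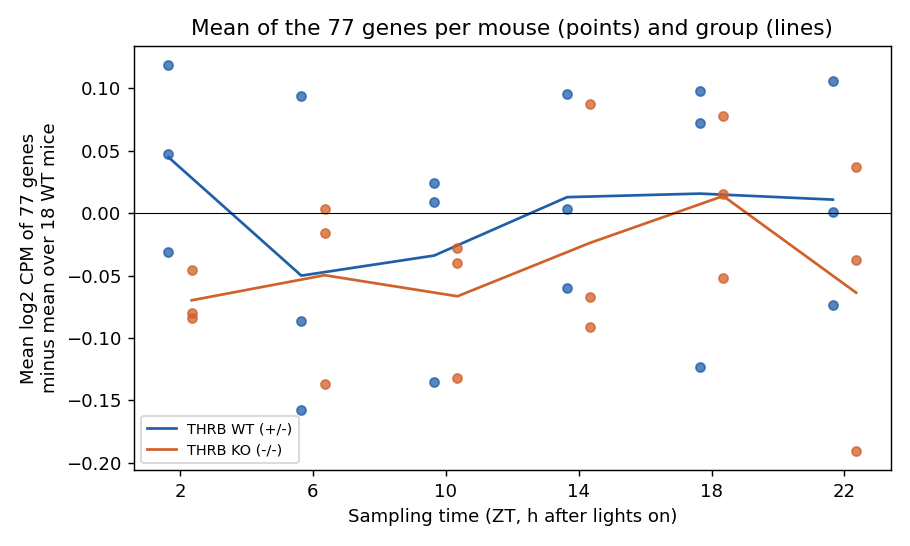
Mean log2 CPM of the 77 genes in each mouse relative to the mean of the 18 THRB WT mice (points), with group means as lines, over the sampling times. Points of THRB WT and THRB KO mice overlap at every time except ZT2, and the mice of a group can lie farther apart than the highest and the lowest group mean.

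Members varied together from mouse to mouse. After removal of the 12 group means, the median Pearson correlation between pairs of members over the 36 libraries was 0.49, and 88.2% of pairs were positive. Against genes of the same range of CPM the median was -0.032, and against the 76 genes of cytosolic ribosomal proteins it was 0.51. All pairs share libraries, depth and RNA quality, so these values are a description. Most closely tied to the others was *Mrps7* (median r of 0.70), and least *Mrps18b* (-0.05), both of the small subunit and both chosen after their values were seen. Genes of the cytosolic ribosome also leaned to lower estimates in THRB KO livers, 74 of 76 with a median of -0.09, and 1 was called, *Rpl15* (-0.21, SE 0.027, edgeR adjusted p = 1e-05). None was called for sampling time. The position of *Rpl15* relative to *Thrb* was not examined here. Alleles of the targeted strain that travel with the altered gene were therefore not told apart from the genotype for it.

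To compare levels between genes, CPM were divided by the length of the gene's exons in kb. On this scale members spanned 2.13 to 81.8 CPM per kb with a median of 12.9, beside 116 for the cytosolic ribosomal proteins. *Mrpl34* (81.8 ± 13.6, SD, n = 36), *Mrpl14* (69.2 ± 7.44), *Mrps21* (62.3 ± 10.1), *Mrpl2* (49.1 ± 6.04) and *Mrpl52* (49.0 ± 4.90) were highest. The lowest were *Mrps25* (2.13 ± 0.274), *Mrpl19* (2.32 ± 0.321), *Mrps30* (2.61 ± 0.221), *Mrpl33* (2.81 ± 0.379) and *Mrpl48* (3.12 ± 0.306). The highest level was 38.4 times the lowest, although the proteins are parts of the same particle.

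The length used for each gene covers all annotated exons, and the order depends on it. In a comparison added after the data were seen, with the length of the transcript that has the longest coding sequence in GENCODE M21, *Mrpl52* came first at 130 CPM per kb and *Mrpl30* moved from 19.3 to 106 CPM per kb. *Mrps25* and *Mrpl19* stayed lowest at 2.31 and 2.53 CPM per kb. By all annotated exons, the next neighbours within either end, such as *Mrpl2* and *Mrpl52*, did not differ beyond their spread over mice. By the transcript length these 2 genes had 55.7 and 130 CPM per kb.

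The *Mrps18* paralogs are of interest since a single bacterial protein has 3 mitochondrial relatives, placed at different sites of the ribosome. *Mrps18a* had 8.24 ± 0.837, *Mrps18b* 8.44 ± 0.799 and *Mrps18c* 13.97 ± 1.31 CPM per kb (SD, n = 36). Log2 fold changes were -0.07 (SE 0.050), -0.04 (SE 0.039) and -0.03 (SE 0.046). Only *Mrps18b* passed for sampling time (edgeR adjusted p = 0.0215, against 0.951 and 0.628), and the difference between the paralogs was not tested.

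*Mrpl53* matched the name rule but held 0 counts in all libraries. All of its 900 bases lie within *Gm42688*, an annotated protein-coding gene on the same strand with 1229 counts, and how the authors counted reads that match both is not given in the sources used here, so the 0 says nothing of its expression. Of the 77 members, 40 overlap another gene of the table, 34 of them on the opposite strand.

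Other genes of mitochondrial translation were read beside the members. Of 5 ribosomal proteins outside the name rule, *Dap3* and *Ptcd3* were called for sampling time and none for genotype. Sampling time passed for 7 of 13 translation factors, 16 of 25 assembly and rRNA modification factors, 11 of 17 mitochondrial tRNA synthetases and 5 of 8 genes for transcription and maintenance of mitochondrial DNA. These shares, 53.9% to 64.7%, stand beside 45% of all tested genes and 64.5% of those in the CPM range of the members. *Oxa1l*, which inserts the new proteins into the inner membrane, peaked at ZT6.08 with an amplitude of 0.18 (SE 0.034). None of these genes was called for genotype by edgeR.

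Among 9 regulators of mitochondrial biogenesis, 8 were called for sampling time (88.9%, beside the same 45% and 64.5%) and 0 for genotype, *Myc* being the exception for time. *Gabpa* and *Yy1*, factors known to bind promoters of such genes, peaked at ZT5.88 and ZT7.83 in THRB WT livers, and *Esrra* at ZT14.04. *Ppargc1b* had an amplitude of 0.96 (SE 0.129). Of the 13 proteins encoded in mitochondrial DNA, which the mitochondrial ribosome translates, only *mt-Cytb* was called for sampling time and 0 for genotype by edgeR. Their levels came from poly-A selected RNA.

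Promoter windows of 250 bases before to 50 bases after the start site were found in RefSeq (GRCm38.p6) for 68 members, all but *Mrpl4*, *Mrpl13*, *Mrpl15*, *Mrpl19*, *Mrpl38*, *Mrpl54*, *Mrps28*, *Mrps34* and *Mrps35*. There, 23 held CCGGAAG, an ETS site as bound by GABPA (33.8%, against 16.6% of the 11989 tested genes with a window), 12 held AAGATGGC, a YY1 site (17.6% against 4.25%), and 7 held CGCATGCG, the centre of the NRF1 site (10.3% against 3.48%), on either strand. CACGTG, the E-box of clock factors, was found in 5 (7.35% against 9.63%), and AGGTCA, the core site of nuclear receptors including THRB, in 10 (14.7% against 13%). Of the members called for sampling time with a window, ETS sites were found in 7 of 16 with a dark-phase peak and 2 of 8 with a light-phase peak, and E-boxes in 2 and 1. A match is a description of the letters and not of binding. The 120 bases before the start site follow for the 7 members with a window among the 9 that passed for sampling time in each of the fits named above, a set chosen after the matches were seen. *Mrps27*, *Mrpl34*, *Mrps2* and *Mrps22* peaked in the dark, and *Mrps9*, *Mrpl47* and *Mrpl44* in the light. They are written 5′ to 3′ on the strand of the gene with matches to these motifs in capitals.
Mrps27, chr13:99344666-99344785, plus strand: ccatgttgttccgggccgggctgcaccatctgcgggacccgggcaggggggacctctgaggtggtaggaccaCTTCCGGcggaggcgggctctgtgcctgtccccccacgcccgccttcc
Mrpl34, chr8:71464806-71464925, plus strand: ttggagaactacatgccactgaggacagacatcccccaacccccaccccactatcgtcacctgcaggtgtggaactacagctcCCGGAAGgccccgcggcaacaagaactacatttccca
Mrps2, chr2:28467946-28468065, plus strand: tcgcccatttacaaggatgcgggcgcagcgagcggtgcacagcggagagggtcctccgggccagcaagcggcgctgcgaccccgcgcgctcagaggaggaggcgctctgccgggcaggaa
Mrps22, chr9:98601680-98601799, minus strand: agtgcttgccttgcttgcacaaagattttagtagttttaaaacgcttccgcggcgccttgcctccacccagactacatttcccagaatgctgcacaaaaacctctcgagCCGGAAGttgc
Mrps9, chr1:42851113-42851232, plus strand: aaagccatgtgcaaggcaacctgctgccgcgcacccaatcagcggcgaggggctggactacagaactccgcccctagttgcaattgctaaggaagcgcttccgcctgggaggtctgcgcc
Mrpl47, chr3:32736756-32736875, minus strand: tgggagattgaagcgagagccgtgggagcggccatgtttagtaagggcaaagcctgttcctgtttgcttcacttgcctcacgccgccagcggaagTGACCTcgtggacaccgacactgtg
Mrpl44, chr1:79775898-79776017, plus strand: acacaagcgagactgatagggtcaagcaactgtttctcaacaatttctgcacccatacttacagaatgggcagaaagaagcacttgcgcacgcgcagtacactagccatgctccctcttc
In this stretch *Mrps27*, *Mrpl34* and *Mrps22* showed an ETS site, in the case of *Mrps27* on the opposite strand, and *Mrpl47* showed AGGTCA on the opposite strand. *Mrps2*, *Mrps9* and *Mrpl44* showed none of the 5 motifs here or in the whole window. Outside this stretch, the window of *Mrps22* also held 2 matches to AGGTCA, and that of *Mrps27* held 1 match to AAGATGGC. The start site used for *Mrpl47* lies 850 bases from the 5′ end of its gene in the deposited table.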

How the data were processed

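Livers of 36 mice were sequenced by the authors from poly-A selected, non-directional libraries. Per the study's methods, the authors mapped read pairs to GRCm38 with HISAT2, counted reads per gene with FeatureCounts and deposited whole-number counts for 54532 genes, neither normalized nor filtered. Versions, annotation release and the treatment of reads shared by genes are not given in the sources used here. Mice of the same group differed by a chi-square per gene of 29.9 to 124, so no library repeated another. Whether mice shared litters is not stated, and p-values measure the spread between these mice.

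Genes with at least 100 counts over all libraries were normalized by TMM and tested with edgeR 4.0.16 (glmQLFit and glmQLFTest, R 4.3.3), with sampling time as a factor for genotype, 12 groups for single times and interaction, and cosine and sine terms of 24 h for rhythms. P-values were adjusted by Benjamini-Hochberg over all 17994 genes, at 0.05. CPM use TMM library sizes. Amplitudes and peak times came from a cosinor of log2 CPM (prior count 2) with numpy and scipy. Alternatives were DESeq2 1.42.0, its size factors in edgeR, other filters, pooled times, the RNA integrity number of the study's mouse list as a covariate, mice of the same letter as blocks, a cosinor F test, an unadjusted p of 0.01, a prior count of 0.5, and leaving out each letter. The fits were tested on simulated counts.

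The members, gene lists and tests were chosen with earlier results of these data known. Named are, besides those said to be chosen later, the 5 members with the highest and lowest fold changes and levels per length, the 6 with the largest amplitude and the 4 with the most distant peaks among those called rhythmic in THRB WT livers, *Mrps16* as the member within 20 Mb of *Thrb*, the *Mrps18* paralogs and the least counted member.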

Additional observations from a re-analysis of the deposited data

How the results depend on the processing

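The counts of 0 members for genotype, for genotype at a single sampling time, for the interaction and for the difference in rhythm stayed at 0 under every alternative run for them. The number called for sampling time was 22 to 29 under the other filters, size factors and DESeq2, and 15 to 20 without the mice of a letter. The number rhythmic in THRB WT livers was 15 to 19 under the alternatives that kept all mice and 10 to 12 without a letter, and in THRB KO livers 15 to 21 and 8 to 16. Fits without a letter hold 24 of 36 libraries. With no filter on low counts, 28.6% of members were called for sampling time, against 23.6% of 31193 genes. In that fit 19.5% against 18.2% were rhythmic in THRB WT and 19.5% against 16.2% in THRB KO livers. Under all other alternatives for sampling time and rhythm the share of members was below that of all genes. Of the calls, 9 of 27 for sampling time, 7 of 19 in THRB WT and 7 of 21 in THRB KO livers were made without each of the letters as well. The same share over all genes was not counted. The median log2 fold change of members for genotype lay between -0.07 and -0.02 without a letter and between -0.051 and -0.046 otherwise. The sign of 4 named genes turned without a letter, none of them called, and the cause was not tested. *Mrpl19* lay between -0.060 and 0.0045 and *Mrps30* between -0.075 and 0.032, both highest without letter c, and *Mrpl37* between -0.015 and 0.017 and *Mrps2* between -0.0078 and 0.10, both lowest without letter b. With a prior count of 0.5 no amplitude moved by more than 0.0012. By the length of the transcript with the longest coding sequence, an alternative chosen after seeing the data, the median level rose from 12.9 to 21.3 CPM per kb, since the divisor is shorter.

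With same-lettered mice of a sampling time as a replicate block, 0 members and 387 genes were called for genotype, against 171 genes without it. At an unadjusted edgeR p under 0.05 there were 21 members (27.3%, against 15.6% of all genes). Without the block there were 10 (12.99% against 12.1%). The block gave 0 members for the interaction and 0 members and 1 gene for the difference in rhythm. Deviations from the group means correlated between same-lettered mice with r from -0.038 to 0.22 over genes, above 0.1 in 9 of 18 pairs, and 15 of 18 THRB WT mice correlated best with their own letter. The latter is a hint from the data that the letters may pair the mice. Numbers in the names of the count columns are a further hint, since they follow each other directly for some same-lettered mice of a sampling time. The labels do not say what a letter marks and not every pair exceeded 0.1, so the fit without the block was kept. If the letters do pair the mice, the genotype tests of that fit ignored the pairing. Groups of 3 mice limit what single sampling times can show.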
